A study of Mus musculus with 4 samples.

Results

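The 9 genes described here are Trp63 and 8 genes of hemidesmosomes and related contacts: Itga6, Itgb4, Itga3, Col17a1, Lama3, Lamb3, Dst and Perp. They were chosen by name, and their rows were read from the UMI matrices of 4 single-cell libraries, each of which holds 31053 genes. All 9 were present in every library. The libraries came from adult prostates of the reporter line P2-Runx1:RFP, whose RFP reports transcription from the P2 promoter of Runx1, and from embryonic urogenital sinus (UGS) explants. All mice were of the ICR (CD-1) strain.

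The adult mice were over 8 weeks old and either intact or castrated for more than 4 weeks. EPCAM+ cells of 3 lobes, AP (anterior), DLP (dorsolateral) and VP (ventral), were sorted into RFP+ and RFP- fractions, with lobes of several mice pooled, and each fraction was labelled with a MULTI-seq barcode. Barcode labelling of intact DLP RFP+ cells failed in runs 1 and 2. There were 3 adult runs, and a run was the replicate. Castrated lobes were pooled in run 1, kept apart in run 2 and not included in run 3. The UGS explants were taken from E15.5 embryos and cultured with 10 μM dihydrotestosterone. Their EPCAM+ cells were collected at days 0, 1, 3 and 6, as 1 pool per day in 1 library. The middle part of each explant was dissected to enrich for branching buds.

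Basal cells of a glandular epithelium sit on a basement membrane, and hemidesmosomes anchor them to it. In a hemidesmosome, an integrin made of the Itga6 and Itgb4 chains and the transmembrane collagen Col17a1 bind laminin outside the cell, and Plec and the epithelial form of Dst connect them to keratin filaments inside. Trp63 encodes p63, the transcription factor that defines the basal lineage of the prostate and other stratified or pseudostratified epithelia. p63 is known to activate several of these adhesion genes, among them Perp.

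Promoter sequences from RefSeq were matched by symbol for 4 of the 9 members, with 7 start sites in all. Trp63, Itga6, Itgb4, Lama3 and Perp had no entry. They run from 250 bases before to 50 bases after a RefSeq start site of build GRCm38.p6 and are written 5′ to 3′ on the gene's strand. All 4 genes were higher in basal than in luminal cells below, and the window with the most motif matches is shown for each. Capitals mark 3 motifs searched on both strands, which did not overlap one another in these windows: a loose p53-family motif of CNTG, any 6 bases and CNNG, the RUNX core TGTGGT, and the AP-1 site TGANTCA.
Col17a1 (chr19:47691993-47692292, minus strand): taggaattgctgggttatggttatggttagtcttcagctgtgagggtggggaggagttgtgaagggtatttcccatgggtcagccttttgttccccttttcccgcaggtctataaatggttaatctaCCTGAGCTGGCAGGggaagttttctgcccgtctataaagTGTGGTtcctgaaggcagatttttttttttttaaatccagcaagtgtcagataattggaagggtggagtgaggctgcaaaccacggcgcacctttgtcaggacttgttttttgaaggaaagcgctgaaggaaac
Lamb3 (chr1:193301744-193302043, plus strand): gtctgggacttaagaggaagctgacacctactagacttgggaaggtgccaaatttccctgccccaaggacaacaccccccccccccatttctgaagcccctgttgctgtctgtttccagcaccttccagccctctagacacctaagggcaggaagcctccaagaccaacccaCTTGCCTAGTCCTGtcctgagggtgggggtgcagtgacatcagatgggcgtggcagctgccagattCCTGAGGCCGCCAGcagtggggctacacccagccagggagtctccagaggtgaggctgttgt
Dst (chr1:34160010-34160309, plus strand): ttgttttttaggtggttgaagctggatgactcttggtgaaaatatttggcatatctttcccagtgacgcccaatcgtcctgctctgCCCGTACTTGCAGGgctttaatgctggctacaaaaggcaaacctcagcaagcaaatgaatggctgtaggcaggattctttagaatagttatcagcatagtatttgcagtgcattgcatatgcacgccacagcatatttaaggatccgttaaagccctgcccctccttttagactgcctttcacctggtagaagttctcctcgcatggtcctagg
Itga3 (chr11:95069149-95069448, minus strand): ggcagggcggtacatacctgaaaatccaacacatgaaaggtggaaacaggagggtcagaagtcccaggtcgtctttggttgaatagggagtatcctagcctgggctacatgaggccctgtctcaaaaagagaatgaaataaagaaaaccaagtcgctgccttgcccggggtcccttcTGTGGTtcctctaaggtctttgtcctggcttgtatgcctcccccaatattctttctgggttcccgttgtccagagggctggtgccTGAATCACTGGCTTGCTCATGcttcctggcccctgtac
The Col17a1 window held the p53-family motif once, starting 123 bases before the start site, and the RUNX core once, starting 84 bases before it. The Lamb3 window held the p53-family motif at 78 and at 12 bases before its start, and the Dst window held it at 164 bases before. The Itga3 window held each motif once. The other windows of Itga3 and Dst held 0 matches to the 3 motifs, and the other Lamb3 window held 1, to the p53-family motif. These letters are common: the p53-family motif was present in 45.2% of 32851 promoters of the same length, the RUNX core in 16.8% and the AP-1 site in 7.81%. A match describes the letters and not a bound site.

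In build GRCm38 with the GENCODE M21 annotation, Trp63 lies at chr16:25683763-25892102 on the plus strand. Itga6 lies at chr2:71745616-71858416 and Itgb4 at chr11:115974709-116008412, both on the plus strand, and Itga3 lies at chr11:95044474-95076801 on the minus strand. Col17a1 lies at chr19:47646344-47692094 on the minus strand, Dst at chr1:33908225-34308661, Lamb3 at chr1:193207699-193343878 and Perp at chr10:18845020-18857073, the last 3 on the plus strand. The libraries read the 3′ ends of transcripts. Isoforms of Trp63 with different promoters, and the epithelial and other forms of Dst (20 annotated transcripts), were therefore counted together.

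After assignment to 1 barcode, runs 1, 2 and 3 held 824, 2194 and 1673 cells and the explant library 5198, with a median of 9750 to 14784.5 UMIs per cell. A cell was called basal where Krt5 and Krt14 together reached 5 UMIs per 10000, and luminal where they did not and Krt8 and Krt18 together did. This gave 2071 basal and 2077 luminal adult cells, and 543 in neither class. The rule used none of the 9 members. Of the adult cells, 282 had Krt5 and Krt14 between 2.5 and 10 UMIs per 10000, near the cut. The gate was checked with markers it did not use. Krt15 (log2 fold change 3.83 ± 0.30 SE) and Krt17 (6.48 ± 0.29) were higher in basal cells, and Cd24a (-2.76 ± 0.19) and Dpp4 (-4.53 ± 0.40) were lower. Fibroblast-associated Col3a1 (5.20 ± 0.83) and endothelial Pecam1 (1.90 ± 0.49) were also higher in basal cells, at summed fibroblast markers, in CPM (UMIs per 1000000), of 3.1 to 71.1 and endothelial markers of 3.1 to 58.4 in intact basal sums. In 1 basal sum, AP RFP+ of run 2, immune markers summed to 1559 CPM, against 1.2 to 184.8 in the other intact basal sums. Dissociation-stress genes summed to 9390 to 14440 CPM in basal cells of run 1 and 5050 to 8466 in those of runs 2 and 3. The part of these signals in the results was not tested beyond the comparisons without such cells or runs given below.

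UMIs were summed over the cells of a class in each run and sorted population. All 9 genes were higher in basal than in luminal cells of intact prostates. Levels below are CPM, the UMIs of a gene per 1000000 UMIs in a sum, over 15 basal and 16 luminal sums. Tests were edgeR's quasi-likelihood test with Benjamini-Hochberg adjustment over all 10795 genes tested, on the mean over AP and VP, RFP+ and RFP-. All 9 members passed in the basal direction, where 28.8% of genes tested were called higher and 31.0% lower, 59.9% in all. The median log2 fold change was 3.35 over the members and -0.03 over all genes. The range over basal sums did not overlap the range over luminal sums for any of the 9. The share of all genes without such overlap was not counted.

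Trp63, the lineage factor, ranged from 71.5 to 261 CPM in basal sums with a median of 100.4, and from 0 to 20.4 with a median of 1.97 in luminal sums. The highest luminal level was AP RFP- of run 3, and the next highest was 6.25 in AP RFP+ of the same run. That AP RFP- sum held 51 cells with a median of 7330 UMIs. In AP RFP- luminal cells of runs 1 and 2 the medians were 20281 and 22584. Its log2 fold change was 5.53 ± 0.33 (SE, adjusted p = 1.8e-11, edgeR).

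Among the integrin chains, Itga6, the laminin-binding alpha chain, spanned 204 to 351 CPM in basal sums (median 241) and 5.67 to 67.1 in luminal sums (median 32.2). Its partner Itgb4, the beta chain that pairs only with it, spanned 64.8 to 201 (median 101) and 3.61 to 60.9 (median 7.46). Itga3, the alpha chain of another laminin receptor that pairs with Itgb1, spanned 29.4 to 102 (median 51.0) and 0.905 to 28.2 (median 14.3). For Itgb4 and Itga3 the highest luminal sum came close to the lowest basal sum. The product of Itga6, known as CD49f, is widely used to sort basal cells, but the fractions here were gated on EPCAM and RFP. The log2 fold changes were 2.74 ± 0.15 for Itga6, 2.93 ± 0.17 for Itgb4 and 2.37 ± 0.18 for Itga3. With cells limited to fewer than 7500 UMIs, the call was lost for Itga3 alone of the 9 members (0.84, edgeR adjusted p = 0.144). The size of the difference depended on the processing for the others too. Over 13 alternatives the lowest log2 fold change was 1.59 for Trp63, 1.14 for Itgb4, 1.35 for Itga6 and 1.88 for Dst. It was 1.855 for Lama3, 2.33 for Lamb3, 3.28 for Col17a1 and 1.66 for Perp, and all were positive.

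Col17a1, the collagen of the hemidesmosome core, ranged from 58.5 to 161 CPM in basal sums (median 98.3) and from 0 to 8.94 in luminal sums (median 1.23). Dst, the plakin that links the contact to keratin, ranged from 444 to 1247 (median 732) and from 23.4 to 122 (median 65.2). Col17a1 had a difference of 5.73 ± 0.22 and Dst of 3.35 ± 0.15 on the log2 scale. Of the 9 members Col17a1 had the largest value, within the standard errors of that of Trp63.

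The laminin chains Lama3 and Lamb3 are subunits of the laminin that hemidesmosomes bind. Lama3 ranged from 19.6 to 81.4 CPM in basal sums (median 45.0) and from 0 to 18.8 in luminal sums (median 1.64). Its highest luminal sum thus came close to its lowest basal sum. Lamb3 ranged from 52.6 to 203 (median 92.0) and from 0 to 13.0 (median 2.44). As class levels, both chains were thus higher in basal than in luminal cells, as were Itga6 and Itgb4. Whether the same cells held the laminin and integrin chains was not tested. The log2 fold changes were 4.91 ± 0.21 for Lama3 and 4.79 ± 0.24 for Lamb3. Perp, a p63 target that serves desmosomes, ranged from 329 to 842 CPM in basal sums (median 441) and from 59.2 to 166 in luminal sums (median 74.6), and its log2 fold change of 1.85 ± 0.10 was the smallest of the 9.

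**Figure D1:**
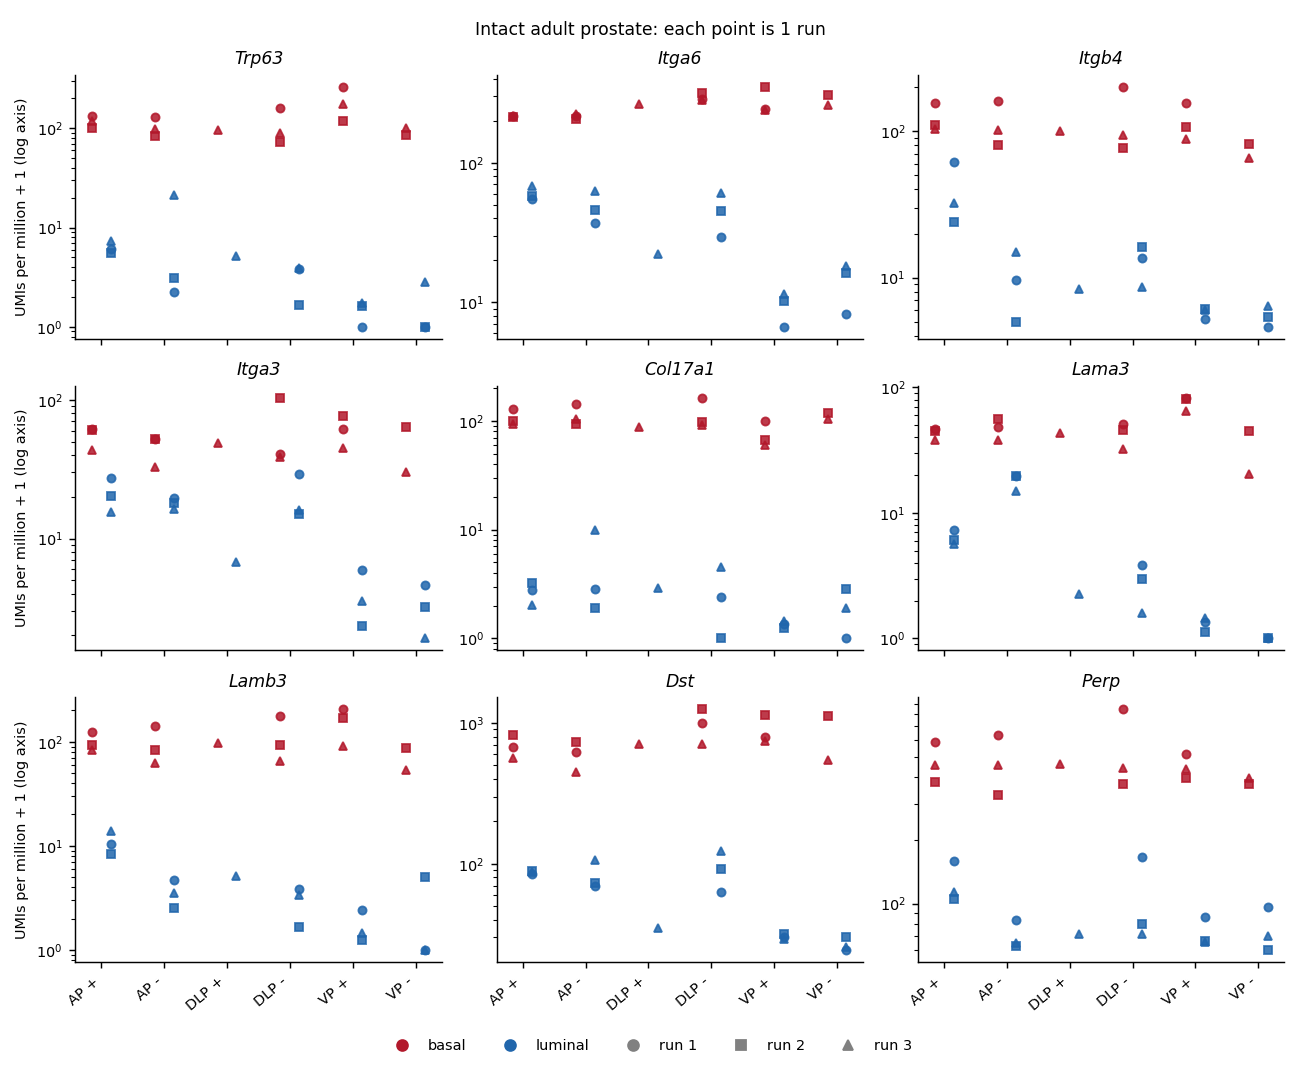
Level of each of the 9 genes (CPM + 1, log axis) by lobe and RFP fraction of intact mice, with basal sums in red, luminal sums in blue and 1 point per run (circle, square and triangle for runs 1, 2 and 3). For every gene the basal points lie above all luminal points, and in luminal cells Lama3 is highest in AP RFP- (14.1 to 18.8 CPM) and Itgb4 in AP RFP+ (23.1 to 60.9).

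The shares of cells with a UMI gave the same order of classes. With each cell thinned to 4000 UMIs, 40.5%, 32.3% and 33.4% of intact basal cells of runs 1, 2 and 3 held a Trp63 UMI, and 1.65%, 1.12% and 3.92% of luminal cells did. Unthinned, the basal shares were 76.7%, 57.1% and 55.2%. No Trp63 UMI was found in 33 immune-like cells of run 1 or 183 of run 2, which allows shares of up to 10.6% and 2.00% (exact binomial intervals, counting error only). Those cells had a median of 6523 and 6262 UMIs, against 13289 and 9225 in basal cells. Dst was the member most often seen in immune-like cells, in 8.00% and 7.19% of them after thinning, against 79.4% to 87.8% of basal and 18.3% to 23.3% of luminal cells.

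Other genes of the same structures were mostly higher in basal cells too. Of 11 other hemidesmosome and laminin-receptor genes, 9 were higher, 1 did not pass and 1, Lamb2, was lower (-0.53 ± 0.21), with a median log2 fold change of 1.47. Lamb2 is named because it went against the rest, after its value was seen. The largest differences were 4.28 ± 0.31 for Lamb1, a laminin beta chain, 4.11 ± 0.21 for Bcam, a laminin receptor, 2.03 ± 0.21 for Lamc1, a laminin gamma chain, and 1.96 ± 0.15 for Plec, the plakin partner of Dst. Of the 9 desmosome genes, 8 were tested, of which 6 were higher and 1 lower, with 5.14 ± 0.54 for the cadherin Dsc3, 4.47 ± 0.22 for the plakophilin Pkp1 and 1.75 ± 0.14 for Pkp3, and -1.73 ± 0.18 for Pkp2. Of 12 genes linked to p63, 10 were tested and 8 were higher, led by Fat2 (5.32 ± 0.34), the Notch ligand Jag2 (5.05 ± 0.20), Sfn (3.91 ± 0.21) and Sox4 (3.21 ± 0.26).

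Within basal cells, the first question was whether RFP+ and RFP- cells of a lobe differ. In AP, where all 3 runs gave both fractions, no member gave a difference that passed. Trp63 was at 131, 100.4 and 116 CPM in RFP+ and at 129, 83.3 and 98.1 in RFP- basal cells of runs 1, 2 and 3. Itga6 was at 214, 212 and 213 in RFP+ and at 215, 204 and 221 in RFP-. The fractions overlapped for both genes. No member passed edgeR's quasi-likelihood test, and the log2 fold changes of the 9 ranged from -0.14 ± 0.23 for Lama3 to 0.29 ± 0.33 for Itga3. No gene at all passed here (0.0% of 9660), with 138 at an unadjusted p under 0.05 and 1 called by DESeq2. With run as a block, 20 genes (0.207%) passed and no member was among them.

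In VP, whether a member passed depended on the run term, and without that term 0.0% of 9660 genes passed. The RFP+ and RFP- basal sums did not overlap for 5 members. That rests on 3 RFP+ and 2 RFP- sums, and the share of all genes without overlap was not counted. Only runs 2 and 3 had at least 10 VP RFP- basal cells. Lama3 was at 81.4, 79.9 and 64.3 CPM in RFP+ cells of runs 1, 2 and 3, and at 44.3 and 19.6 in RFP- cells of runs 2 and 3. Lamb3 was at 203, 168 and 90.6 in RFP+ and at 86.5 and 52.6 in RFP- cells. For both laminin chains the RFP+ sums lay above the RFP- sums. Trp63 was at 261, 118 and 172 in RFP+ and at 83.4 and 100.3 in RFP- cells, again without overlap. Col17a1 went the other way, at 98.3, 65.6 and 58.5 in RFP+ and at 117 and 104 in RFP- cells. Itgb4 was at 156, 106 and 87.7 in RFP+ and at 81.3 and 64.8 in RFP- cells.

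For VP, edgeR without a run term gave 0 genes past the threshold and 776 at an unadjusted p under 0.05, and DESeq2 called 19. The log2 fold changes were 1.04 ± 0.29 for Lama3 (adjusted p = 0.403), 0.93 ± 0.35 for Lamb3 (0.522), 0.75 ± 0.30 for Trp63 (0.564) and -0.81 ± 0.22 for Col17a1 (0.403). With run as a block, 129 genes (1.34%) passed, among them Col17a1 (-0.90 ± 0.17, adjusted p = 0.0131) and Lama3 (1.04 ± 0.24, adjusted p = 0.0290). Over 13 alternatives edgeR and DESeq2 gave adjusted p from 0.0131 to 0.9998 for Col17a1 and from 0.0290 to 0.9998 for Lama3, and the direction of each was the same in all 13. The difference between AP and VP in the effect of RFP was tested directly as an interaction and passed for no member. Lama3 came nearest (-1.18 ± 0.36, adjusted p = 0.9999, and 0.148 with the block, over alternatives from 0.148 to 1.0). In edgeR 0 genes (0.0%) passed without the block, with 368 at an unadjusted p under 0.05 and 0 called by DESeq2, and 6 (0.0621%) passed with it.

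Between lobes, the laminin chains, Trp63 and Dst were higher in RFP+ basal cells of VP than of AP with run as a block, and not without it. Lama3 was at 45.3, 44.0 and 37.0 CPM in AP RFP+ and Lamb3 at 124, 92.7 and 82.9. In the VP RFP+ values above, Lama3 did not overlap with AP and Lamb3 did. Dst was at 672, 822 and 559 in AP RFP+ and at 797, 1134 and 743 in VP RFP+, which overlapped, with VP the higher in each run. Without a run term, 29 of 9660 genes passed (0.3%) and no member did, with log2 fold changes of AP over VP of -0.87 ± 0.24 for Lama3 (adjusted p = 0.175), -0.65 ± 0.26 for Trp63 (0.530), -0.64 ± 0.29 for Lamb3 (0.632) and -0.42 ± 0.29 for Dst (0.833).

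With run as a block, 440 genes (4.55%) passed, including these 4 members. The blocked log2 fold changes were -0.82 ± 0.19 for Lama3 (edgeR adjusted p = 0.0103), -0.62 ± 0.15 for Trp63 (0.0153), -0.65 ± 0.16 for Lamb3 (0.0220) and -0.40 ± 0.11 for Dst (0.0455). No other alternative called any of the 4. Their adjusted p over 13 alternatives reached 0.9998 for Lama3, 0.9999 for Trp63 and Dst and 0.981 for Lamb3, and all 13 gave a lower level in AP except 1 for Dst. Col17a1 was at 127, 98.6 and 91.8 in AP RFP+ and overlapped its VP RFP+ values (0.52 ± 0.20, adjusted p = 0.503, over alternatives from 0.0634 to 0.9999).

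**Figure D2:**
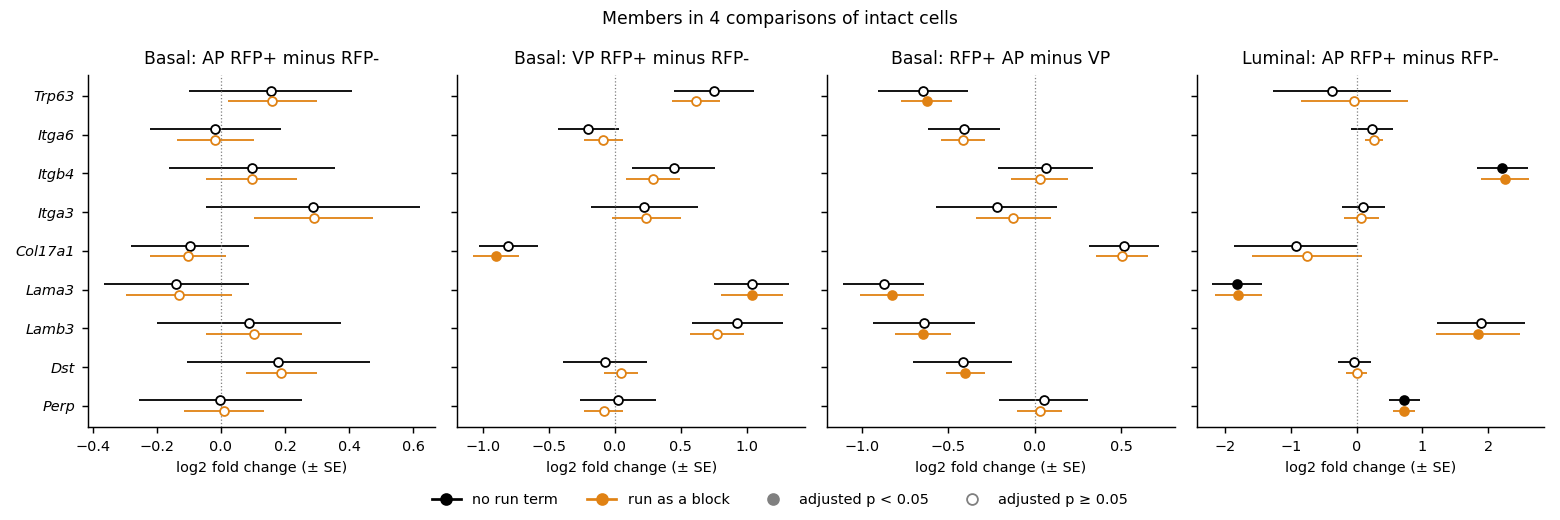
Log2 fold change ± SE of the 9 members in 4 comparisons of intact cells, without a run term (black) and with run as a block (orange), with filled points for an adjusted p below 0.05 in edgeR. In basal cells no black point is filled, whereas with the block Col17a1 and Lama3 pass between VP fractions and Trp63, Lama3, Lamb3 and Dst pass between lobes.

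Among RFP- basal cells, Dst was lower in AP than in DLP or VP with run as a block. Dst was at 626, 732 and 444 CPM in AP RFP-, at 1007, 1247 and 704 in DLP RFP- of runs 1, 2 and 3, and at 1125 and 543 in VP RFP- of runs 2 and 3. Within each run AP was the lowest of the lobes, although the ranges overlapped. Itga6 was at 287, 313 and 280.2 in DLP RFP- and at 307 and 257 in VP RFP-, all above the AP RFP- values. Between AP and DLP edgeR called 0 genes without a run term (0.0%, with 387 at an unadjusted p under 0.05) and DESeq2 called 0, and Dst differed by -0.70 ± 0.29. With the block 41 genes passed (0.424%), and Dst was the only member (-0.69 ± 0.11, edgeR adjusted p = 0.00804, over alternatives from 0.00804 to 1.0). Between AP and VP 1 gene passed without the block (0.0104%) and 116 with it (1.2%), and Dst again was the only member (-0.54 ± 0.13, edgeR adjusted p = 0.0402, over alternatives from 0.0402 to 1.0). Itga6 did not pass in either (-0.45 ± 0.21 and -0.60 ± 0.23). No gene of the 3 other lists passed in any of the 6 basal contrasts without a run term.

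Perp, Itgb4 and Itga3 gave no difference that passed between lobes or RFP fractions in basal cells. Perp ran from 329 to 842 CPM, and in each population with 3 runs, run 1 gave the highest value and run 2 the lowest. Itga3 ran from 29.4 to 102, with the highest value in DLP RFP- of run 2.

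In luminal cells the members were low, and several passed between AP fractions and between lobes without a run term. In AP, RFP+ luminal cells had more Itgb4 and Perp and less Lama3 than RFP- cells. Itgb4 was at 60.9, 23.1 and 31.2 CPM in RFP+ and at 8.71, 3.95 and 14.1 in RFP- luminal cells. Perp was at 158, 104 and 112 in RFP+ and at 82.1, 61.9 and 63.9 in RFP-. Lama3 was at 6.34, 5.07 and 4.68 in RFP+ and at 18.7, 18.8 and 14.1 in RFP-. The fractions did not overlap in CPM for any of these 3 genes, and the share of all genes without overlap was not counted.

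Of 10719 genes, 2251 passed in this contrast (21.0%), 11.0% higher and 10.0% lower in RFP+. The members that passed were Itgb4 (log2 fold change 2.21 ± 0.39, edgeR adjusted p = 0.00105), Perp (0.73 ± 0.23, 0.0388) and, in the other direction, Lama3 (-1.81 ± 0.38, 0.00429). Lamb3 was at 9.35, 7.32 and 13.0 in RFP+ and at 3.73, 1.52 and 2.55 in RFP- cells, and passed with run as a block, where 31.6% of genes did (1.84 ± 0.64, edgeR adjusted p = 0.0392) but not in the fit without it (1.89 ± 0.67, 0.0581, over alternatives from 0.0333 to 0.572). It also passed, with no block, without the low-count filter, with at least 20 cells per sum, and without cells of other types. Itga6 (0.23 ± 0.32), Itga3 (0.10 ± 0.32) and Dst (-0.03 ± 0.25) gave no difference that passed, and neither did Trp63 or Col17a1. With cells limited to fewer than 7500 UMIs, Itgb4 (0.71, adjusted p = 0.763) and Perp (0.40, 0.783) no longer passed. Without run 2, Lama3 did not pass (-1.67, adjusted p = 0.117), and Perp lost its call without run 2, without run 3 and at a basal cut of 10. The adjusted p over alternatives ran from 9.7e-06 to 0.763 for Itgb4, 0.00335 to 0.783 for Perp and 0.0015 to 0.117 for Lama3, with the same direction throughout.

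Other genes of the same structures were also higher in RFP+ luminal cells of AP. Of 11 other hemidesmosome and laminin-receptor genes, 9 were tested and 6 were higher in RFP+ luminal cells, among them Bcam (1.97 ± 0.50), Lama5 (1.57 ± 0.41) and Lamc1 (1.38 ± 0.47). The list's median was 1.38, against 0.02 over all genes tested. Of the desmosome genes 2 of 7 tested were higher, Jup (1.24 ± 0.21) and Dsp (0.78 ± 0.17), and of the p63-linked genes 2 of 9, Cdkn1a (1.76 ± 0.50) and Sfn (1.09 ± 0.23). In the same contrast the luminal marker Dpp4 (-0.86 ± 0.25) was lower, and Foxq1 (2.61 ± 0.52) and Plaur (3.66 ± 0.71), listed as urothelial markers, and the immune marker Cd74 (4.46 ± 1.52) were higher. The basal marker Krt15 differed by 1.85 ± 0.66 (edgeR adjusted p = 0.0585). A change within a cell type cannot be told apart from a different mix of luminal cells here.

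In VP luminal cells, no member passed between RFP+ and RFP- cells, where 27 of 10719 genes passed (0.252%), 0.00933% higher and 0.243% lower in RFP+, and 0.877% with run as a block. Between lobes, RFP+ luminal cells of AP had more of 5 members than those of VP. In VP RFP+ luminal cells of runs 1, 2 and 3, Itga6 was at 5.67, 9.26 and 10.6 CPM, against 54.3, 56.9 and 67.1 in AP RFP+. Itgb4 was at 4.25, 5.12 and 5.06 in VP RFP+, and Itga3 at 4.96, 1.34 and 2.53 against 26.2, 19.1 and 14.6 in AP. The laminin chains were close to the limit of detection in VP, with 5 Lama3 and 9 Lamb3 UMIs over 3 runs, against 39 and 69 in AP from fewer UMIs in all. In CPM, before TMM scaling, none of these genes overlapped between the lobes. The share of all genes without overlap was not counted.

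In this contrast 24.8% of genes passed, 13.7% higher and 11.1% lower in AP. The 5 members were Lamb3 (3.00 ± 0.69, edgeR adjusted p = 0.00509), Lama3 (2.99 ± 0.53, 0.00119), Itgb4 (1.85 ± 0.35, 0.00117), Itga3 (1.85 ± 0.35, 0.00142) and Itga6 (1.67 ± 0.33, 0.00188). Without run 2, Itga6, Itga3 and Lama3 did not pass, and without run 3 Lamb3 did not. Their adjusted p over all alternatives reached 0.0791, 0.0722, 0.0645 and 0.0746, and that of Itgb4 0.0353. Trp63 was at 5.13, 4.51 and 6.25 in AP RFP+ and at 0, 0.609 and 0.744 in VP RFP+. It passed with run as a block, where 37.0% of genes did (2.36 ± 0.78, edgeR adjusted p = 0.0259) and not without (2.13 ± 0.97, 0.125, over alternatives from 0.0259 to 0.429), and so did Dst (0.49 ± 0.16, 0.0249, and 0.47 ± 0.25, 0.189, over alternatives from 0.0249 to 0.617). Perp was higher in AP in CPM and lower after TMM scaling (-0.28 ± 0.23), so its direction depended on the scaling. The mean log2 TMM factor was 0.51 in AP RFP+ and -0.56 in VP RFP+ luminal sums, and VP RFP+ luminal cells held a median of 45162 to 56839 UMIs, against 9398 to 12835 in AP RFP+.

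The same contrast gave 7 of 9 tested genes higher in the other hemidesmosome and laminin-receptor list, led by Bcam (3.01 ± 0.51), Lamc1 (2.16 ± 0.48), Itgb1 (1.60 ± 0.27) and Plec (1.52 ± 0.26). The median of that list was 1.51, against 0.06 over all genes tested. Of 7 desmosome genes 5 were higher, with Dsc2 (2.82 ± 0.56), Pkp1 (2.72 ± 0.81), Dsp (1.32 ± 0.17) and Pkp2 (0.93 ± 0.28) the largest. Of 9 p63-linked genes 4 were higher, Igfbp3 (5.0 ± 1.66), Sfn (2.61 ± 0.24), Sox4 (2.06 ± 0.53) and Tfap2c (1.87 ± 0.48), and Fermt1 (-1.60 ± 0.49) and Tfap2a (-1.25 ± 0.16) were lower. The last pair is named after its values were seen. In RFP- luminal cells, no gene of the first 2 lists passed between AP and VP, and of the p63-linked genes Sox4 (2.74 ± 0.79) and Sfn (1.65 ± 0.28) were higher and Tfap2a (-0.99 ± 0.20) lower in AP.

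Among RFP- luminal cells, Lama3 was the member that set AP apart. No Lama3 UMI was counted in VP RFP- luminal cells of any run, whereas AP RFP- held 103 UMIs over the 3 runs. The VP RFP- luminal sums, used in every comparison of that group, held 10, 59 and 38 cells in runs 1, 2 and 3. Those of run 3 were unlike the others, with medians of 15621 UMIs and a mitochondrial share of 0.54%. The medians were 48130 UMIs and 2.02% in run 1 and 40672 UMIs and 2.54% in run 2. With 3 counts put in place of 0 over the VP group, AP was 26.6-fold higher in CPM, before TMM scaling. The mean log2 TMM factor was 0.40 in AP RFP- and -0.51 in VP RFP- luminal sums, so scaling lowers this ratio. The test on scaled sums passed (edgeR adjusted p = 0.000229). In DLP RFP-, Lama3 was at 2.82, 2.00 and 0.584 CPM, below all AP RFP- values (6 against 103 UMIs, 3.29 ± 0.50, edgeR adjusted p = 0.00437). This last call was lost on leaving out any 1 of the 3 runs, with adjusted p from 0.000386 to 0.202 over all alternatives. Mesonephric markers summed to 826 to 7883 CPM in the DLP RFP- luminal sums, most of it Svs2, and to 7.6 to 250.4 in AP RFP-.

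Between AP and VP RFP- luminal cells 13.5% of genes passed, 6.77% higher and 6.74% lower. Besides Lama3, Itga3 passed (2.14 ± 0.50, edgeR adjusted p = 0.0105, over alternatives from 0.00238 to 0.145, lost without run 2 or run 3), from 18.7, 17.0 and 15.3 CPM in AP and 3.61, 2.19 and 0.905 in VP. With run as a block (20.4% of genes) Itga6 (0.85 ± 0.18, adjusted p = 0.00382) and Dst (0.71 ± 0.20, 0.0204) passed as well, without it they did not (0.204 and 0.115, with ranges over alternatives up to 0.545 and 0.914), and Dst also passed without run 1. Perp was called lower in AP (-0.99 ± 0.25, adjusted p = 0.0136), but its levels of 82.1, 61.9 and 63.9 in AP and 95.6, 59.2 and 68.8 in VP overlapped, and the call was lost under 6 of 12 alternatives. Between AP and DLP RFP-, 1.28% of genes passed, 4.26% with the block, and Lama3 was the only member.

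Intact DLP RFP+ cells were present in run 3 alone, so they were compared with DLP RFP- cells of that run without a test. A ratio was called where it passed 2-fold with at least 20 UMIs on 1 side. In basal cells no member was called, against 2.23% of genes higher and 1.02% lower in RFP+. Lamb3 stood at 95.6 in RFP+ and 64.8 in RFP- (log2 ratio 0.56, 95% interval 0.28 to 0.85, exact and for counting error only). In luminal cells Dst (34.1 against 122 CPM), Itga6 (21.0 against 59.5) and Itga3 (5.74 against 15.2) were called lower in RFP+, where 29.5% of genes were. Relative to the median log2 ratio of -0.69 over all genes, only Dst was still past 2-fold. With cells limited to fewer than 7500 UMIs, Dst and Itga6 were instead higher in RFP+.

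Castration was compared in run 2, the only run that kept castrated lobes apart. There was 1 pool per group, so the values have no replicate check and no test, and intervals cover counting error. The paper reports a larger RFP+ share of epithelial cells after castration, so an RFP+ fraction may hold different cells in each group. A change within a cell type cannot be told apart from a different mix of cells in these ratios. In AP RFP+ basal cells (152 castrated, 127 intact) no member was called, against 2.02% of genes higher and 11.6% lower. Trp63 stood at 86.4 CPM in castrated and 100.4 in intact cells (log2 ratio -0.22, interval -0.56 to 0.13). Perp stood at 244 and 379.6 (-0.64, -0.83 to -0.45), where the median of all genes was -0.28. In VP RFP+ basal cells (66 and 78 cells) Lama3 was called lower, from 8 castrated and 67 intact UMIs (21.2 against 79.9 CPM, interval -3.18 to -0.85), where 15.3% of genes were lower and 2.41% higher. Trp63 there stood at 87.4 and 118. In castrated DLP RFP+ basal cells, which have no intact counterpart in run 2, Trp63 stood at 82.7, Itga6 at 210.5 and Lamb3 at 115 CPM.

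In RFP+ luminal cells of AP and VP, the largest ratio of castrated to intact among the members with at least 20 UMIs was that of Itga6. In AP RFP+ luminal cells (204 castrated, 109 intact) Itga6 stood at 157 against 56.9 CPM (log2 ratio 1.47, 1.16 to 1.79), and no other member was called. In VP RFP+ luminal cells (137 and 177) it stood at 77.7 against 9.26 (3.07, 2.68 to 3.47). Castrated luminal sums of AP, DLP and VP RFP+ cells thus held 157, 107 and 77.7 CPM, against 175, 210.5 and 225 in the basal cells of the same fractions. The background was 9.64% of genes higher and 6.26% lower in AP, and 37.9% higher and 3.88% lower in VP, where the median of all genes was 0.82.

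Dst (79.7 against 30.6 CPM) and Itgb4 (11.0 against 5.12) were also called higher in VP RFP+ luminal cells after castration. Relative to the median of all genes only Itga6 remained past 2-fold higher, and Perp was past 2-fold lower (32.5 against 65.0). With fewer than 7500 UMIs per cell, the AP value of Itga6 fell to 0.61 on the log2 scale, and in VP the limit left too few cells for a ratio. In AP RFP- luminal cells (51 and 146) Lama3 was called lower from 3 castrated and 62 intact UMIs (-2.62, -4.94 to -1.01), where 16.4% of genes were lower and 4.27% higher, and Itga6 stood at 68.3 and 44.9 CPM (0.60, 0.16 to 1.03). In DLP RFP- luminal cells (24 and 71) no member was called (2.01% of genes higher, 14.6% lower), with Itga6 at 62.8 and 43.9 (0.52, -0.15 to 1.15).

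**Figure D3:**
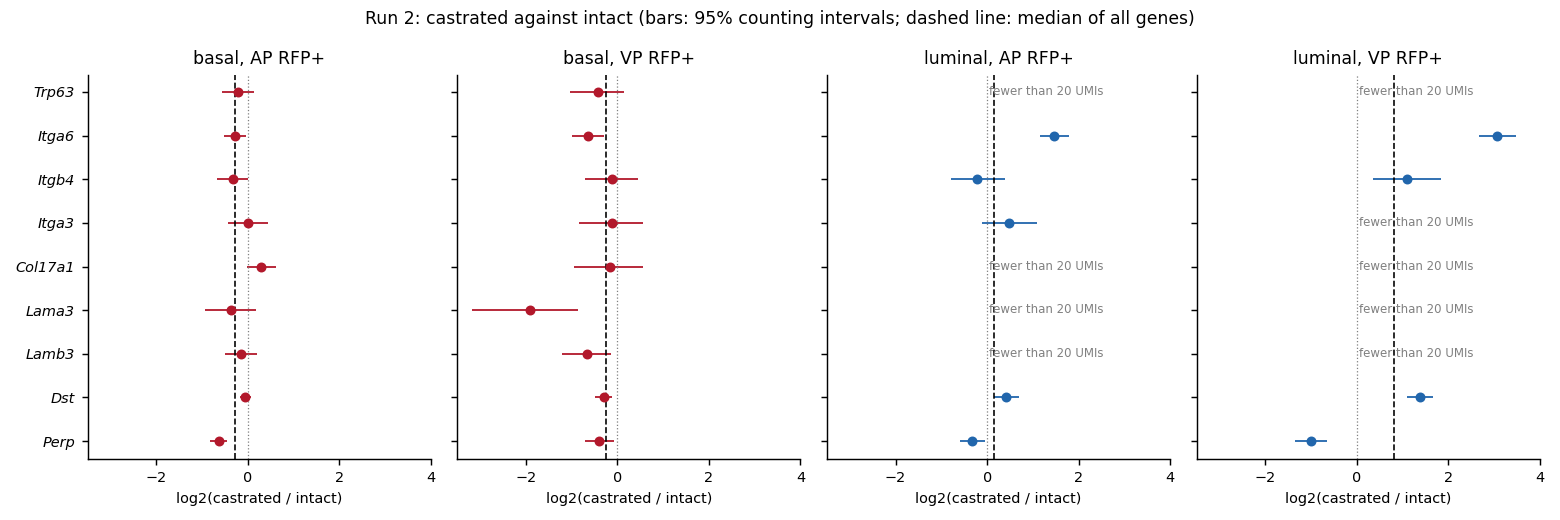
Log2 ratio of castrated to intact CPM in run 2 for 4 RFP+ populations, with bars for 95% counting intervals, a dotted line at 0 and a dashed line at the median of all genes, and no point where both sides had fewer than 20 UMIs. Itga6 lies to the right of the median in luminal cells of AP (1.47) and VP (3.07). In basal cells it lies at the median in AP (-0.28) and to the left of it in VP (-0.64).

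In the UGS explants the question was how the members change as prostatic buds form in culture. Cells passing the Krt5 and Krt14 cut are called Krt5/Krt14-high (3631 cells) and the Krt8 and Krt18-positive remainder Krt5/Krt14-low (1211 cells), because these embryonic cells are not adult basal and luminal cells. Of all explant cells 1157 lay near the cut. In all 701, 802, 1225 and 2470 cells of days 0, 1, 3 and 6, Trp63 stood at 68.3, 72.4, 78.3 and 131 CPM, and Itga6 at 47.5, 79.2, 119 and 207. Trp63 was nearly level until day 3, and Itga6 was higher on each later day. From day 0 to day 6, 4 members passed 2-fold: Itga6 (log2 ratio 2.12, 2.02 to 2.23), Col17a1 (1.78, 1.57 to 1.98), Itgb4 (1.77, 1.60 to 1.95) and Lamb3 (1.76, 1.60 to 1.93), against 7.04% of genes higher and 11.3% lower. The other 5 had positive ratios under 2-fold: Trp63 0.94, Itga3 0.79, Perp 0.55, Lama3 0.51 and Dst 0.39, where the median of all genes was -0.20. Without cells with a UMI of Pax2, Pax8, Upk3a, Col1a1 or Pdgfra, 362 of the 701 cells of day 0 and 2068 of the 2470 of day 6 were left. Trp63 then stood at 94.5 and 136 CPM on these days (0.53), and Itga3 (0.60), Perp (0.30), Lama3 (0.23) and Dst (0.23) also had smaller ratios. The same 4 members still passed 2-fold (Itga6 2.03, Col17a1 1.51, Lamb3 1.48, Itgb4 1.355). How far the mix of cells shaped the courses over all cells was not tested. There was 1 pool per day, so no test was made.

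The hemidesmosome genes did not share 1 course in Krt5/Krt14-high cells. Itgb4 stood at 24.3, 35.6, 60.4 and 77.1 CPM on days 0, 1, 3 and 6, Col17a1 at 19.5, 36.8, 48.4 and 61.5, and Lamb3 at 27.4, 39.4, 60.9 and 83.3. These 3 and Itga6 (54.1, 91.7, 119 and 208) were higher on each day than on the one before. Trp63 stood at 89.4, 93.0, 93.3 and 143, Lama3 at 36.4, 27.9, 36.7 and 46.7, and Dst at 195, 146, 148 and 240.4. Dst and Lama3 were lower on day 1 than on day 0. Itga3 stood at 15.4, 26.0, 26.2 and 28.0, and Perp at 503, 466, 495 and 643. From day 0 to day 6 the same 4 members passed 2-fold (Itga6 1.94, Itgb4 1.67, Col17a1 1.66, Lamb3 1.60), against 8.47% of genes higher and 8.51% lower, and no member did between consecutive days.

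In Krt5/Krt14-low cells Trp63 stood at 32.1, 25.6, 35.1 and 101 CPM, so that most of its difference lay between days 3 and 6 (log2 ratio 1.53). Lama3 (1.17) was the other member past 2-fold in that step, where 2.94% of genes were higher and 2.77% lower. From day 0 to day 6, 6 members passed 2-fold: Itga6 (2.41), Lamb3 (2.01), Itgb4 (1.97), Trp63 (1.66), Col17a1 (1.24) and Perp (1.20), against 6.25% of genes higher and 11.8% lower. Day 0 held many other cells, however. Mesonephric markers summed to 142.7 CPM in the low class on day 0 and 93.0 on day 6. Without cells with a UMI of Pax2, Pax8, Upk3a, Col1a1 or Pdgfra, 99 of 290 low-class cells were left on day 0, Trp63 stood at 76.2 and 107 on days 0 and 6 (0.49), and only Itga6 (2.29) and Itgb4 (1.01) were past 2-fold. In Krt5/Krt14-high cells the same 4 members passed 2-fold without these cells.

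From day 1 to day 6 the gap between the classes narrowed for Trp63 and not for Col17a1. The log2 ratio of high to low class was 1.48, 1.86, 1.41 and 0.50 for Trp63 on days 0, 1, 3 and 6 and 2.06, 2.21, 2.94 and 2.47 for Col17a1. Between the same days the ratio of Perp went from 0.61 to 0.22 and that of Itga6 from 0.79 to 0.08. Over the 4 days 7, 6, 6 and 4 members were past 2-fold higher in the high class, against 4.13%, 3.89%, 3.54% and 4.31% of genes. Without the other-type cells above, no member was past 2-fold on day 0 (Trp63 0.41, Col17a1 0.99), for Trp63 the ratios were 0.41, 1.42, 1.21 and 0.44, and for Perp they were 0.16 on day 1 and 0.21 on day 6.

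**Figure D4:**
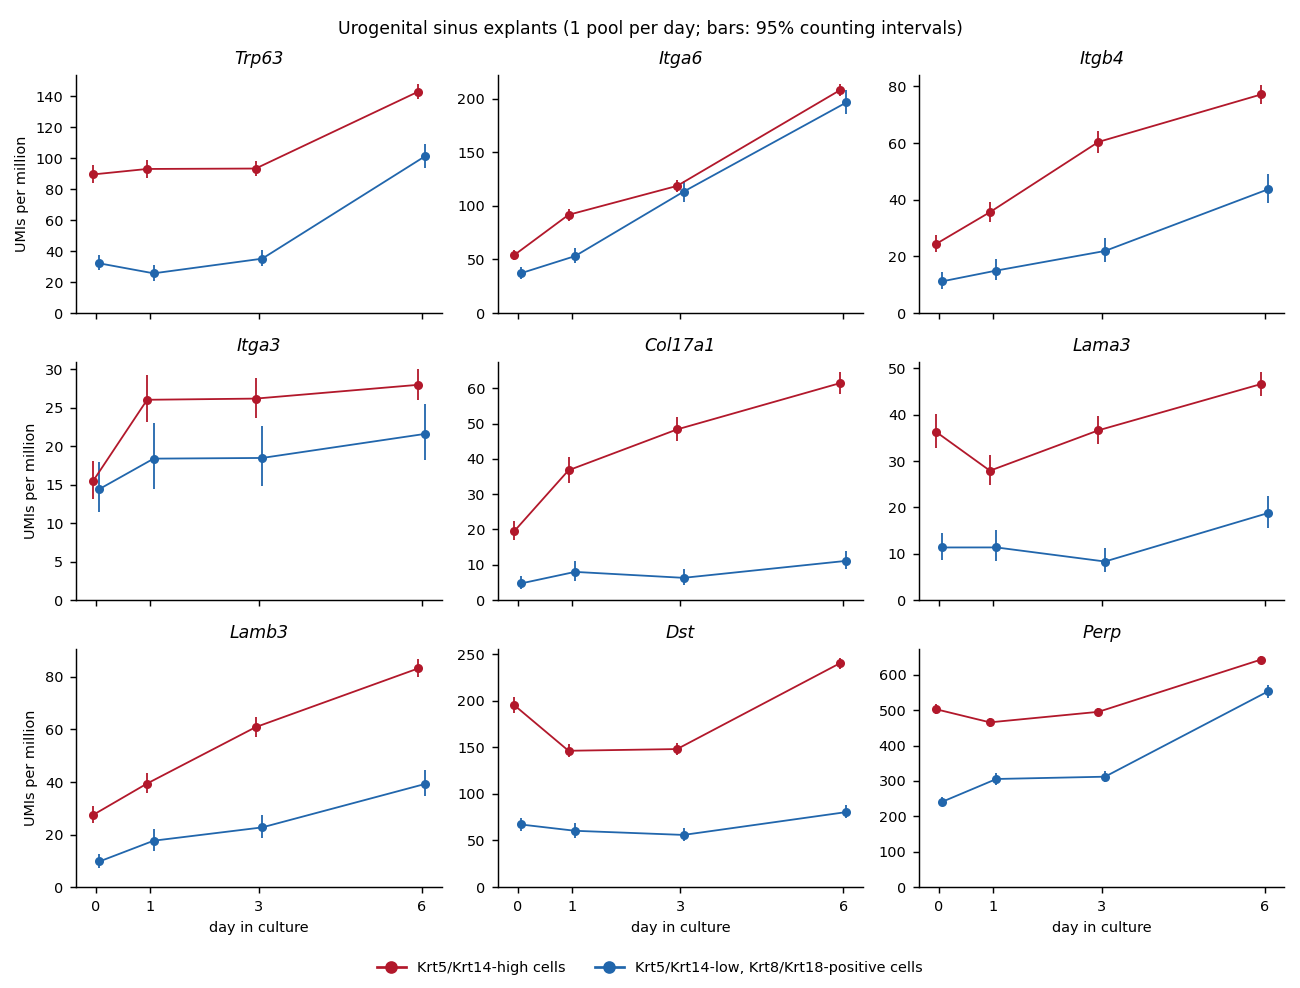
Level of each member (CPM, linear axis from 0) against day in culture in Krt5/Krt14-high (red) and Krt5/Krt14-low, Krt8/Krt18-positive (blue) explant cells, with 95% counting intervals and 1 pool per day. Itga6 runs together in both classes from day 3 (119 and 113, then 208 and 197), and Trp63 in the low class is 35.1 on day 3 and 101 on day 6.

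Finally, the genes whose levels ran most like Trp63 were listed. These correlations describe log2(CPM + 1) over sums that share libraries and depth, and carry no p. Over all 38 adult sums with at least 20 cells, where basal and luminal sums form separate groups, the closest 5 genes included Ptprs (Pearson r = 0.982), Dlk2 (0.979), Pdpn (0.977) and Dcn (0.975). Of the members, Col17a1 ranked 33 and Lamb3 66 of 7133 genes, and Itga6 and Itga3 ranked 357 and 649. Over the 18 basal sums alone, the closest 5 included Zc2hc1a (0.903), Lrrc28 (0.902), Phip (0.892) and Rab12 (0.882). There the members were less like Trp63. Itgb4 (0.684), Perp (0.627), Lamb3 (0.615) and Lama3 (0.532) ranked 384, 653, 719 and 1217 of 7262 genes, and Col17a1 (0.091), Itga6 (0.007), Dst (-0.083) and Itga3 (-0.148) ranked 4029, 4449, 4908 and 5213. Over the 8 explant sums the closest were Aig1 (0.991), Col4a5 (0.988), Sorcs2 (0.970), Lgr4 (0.967) and Ahr (0.966), and Perp ranked 10 (0.955).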

How the data were processed

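Raw UMI counts per gene and cell were deposited by the authors for each of 4 droplet libraries (3′ chemistry), with counts of MULTI-seq barcodes per cell. Per the labels' processing notes, the authors used Cell Ranger 3.1.0, Seurat 3.1.5 and mm10 (GRCm38). Adult cells with 750 to 7500 genes and under 10% mitochondrial UMIs, and explant cells with over 1000 genes and under 7.5%, were kept where exactly 1 barcode passed the thresholds of the study. The study's text gives 7500 as an upper limit of UMIs. That reading leaves 1345 of the 4691 adult cells and 27 of 480 intact VP luminal cells, so it was run as an alternative. The single-barcode rule removes doublets between labelled fractions, but not those within a fraction or within an explant day, in any library. A doublet of a basal and a luminal cell of the same fraction can therefore remain. The rule also keeps doublets with unlabelled intact DLP RFP+ cells in runs 1 and 2. The authors also ran a doublet caller on these runs. None was run here, and an alternative dropped the 6% of cells with the most UMIs. Library pairs shared 0 to 2 cell barcodes.

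UMIs were summed per run, population and keratin class, with at least 10 cells per sum, and tests used the sums, since cells are not replicates. The test was edgeR 4.0.16 in R 4.3.3 (TMM, filterByExpr, quasi-likelihood, 1 coefficient per population, Benjamini-Hochberg over all genes tested, threshold 0.05), with DESeq2 1.42.0 as an alternative. Standard errors are absolute log2 fold changes over the square root of F. The code was tested on simulated counts. Fractions of a run came from the same pooled mice, so run pairs them. Their deviations from the group means correlated at 0.621, 0.277 and 0.552 (AP RFP+ and RFP-), 0.401, 0.319 and 0.255 (RFP+ AP and VP) and 0.361, 0.239 and 0.22 (RFP- AP and DLP) over runs 1, 2 and 3, and run as a block was an alternative. P-values measure the spread of the sums of a population around their mean, shared over populations. Without the block, sums of the same run were treated as independent despite these correlations. Groups of 1 sum are given with exact 95% Poisson intervals, and called past 2-fold with at least 20 UMIs. These and the binomial intervals cover counting error only.

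The members, gene lists and tests were chosen with earlier results of these data known. Named genes are the members, up to 4 genes past the threshold per list and comparison, by size of change, and the 5 genes most like Trp63. Some genes that this rule selects are not reported here. The number of columns of other samples was 0.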

Additional observations from a re-analysis of the deposited data

Results flagged for a closer look

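In run 2, the log2 ratios of castrated to intact for Itga6 and Dst had opposite signs in basal and luminal cells of the same sorted fraction, in 3 cases. The differences were not tested because each group is 1 pool. For Itga6 in AP RFP+ cells, the log2 ratio of castrated to intact was -0.28 in basal and 1.47 in luminal cells, a difference of 1.74. For Itga6 in VP RFP+ cells, the ratios were -0.64 and 3.07, a difference of 3.71. For Dst in VP RFP+ cells, the ratios were -0.30 and 1.38, a difference of 1.69. The median of all genes was -0.28 in basal and 0.15 in luminal cells of AP RFP+, and -0.25 and 0.82 in those of VP RFP+. Relative to these medians, the basal values were 0.0036 for Itga6 in AP, -0.39 for Itga6 in VP and -0.06 for Dst in VP. The values of Itga6 in AP and Dst in VP lay near the median, so their signs are not read as a direction. For Itga6 in VP the sign still differed between the classes.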

How the results depend on the processing

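Numbers of genes called moved by over 1.5 times as follows, with values leaving out run 1, 2 and 3 in that order. AP RFP+ against RFP- basal cells gave 0, and 77 with no low-count filter, 1 with DESeq2, 20 with the replicate block and 1 without the 6% of cells with the most UMIs. VP RFP+ against RFP- basal cells gave 0, and 175, 19 and 129 with no filter, DESeq2 and the block, and 0, 0 and 1 leaving out a run. RFP+ AP against VP basal cells gave 29, and 295, 82 and 440 with these 3, 54 without cells of other types, 1 under 7500 UMIs per cell, and 28, 0 and 1 leaving out a run. RFP- AP against VP basal cells gave 1, and 177, 28 and 116 with the 3, 4 at a basal cut of 10, 3 without other cells, and 3, 0 and 2 leaving out a run. RFP- AP against DLP basal cells gave 0, and 119 with no filter, 41 with the block, 1 without other cells, and 0, 0 and 1 leaving out a run. The basal interaction gave 0, and 60 with no filter and 6 with the block. In luminal cells, AP RFP+ against RFP- gave 2251, and 3388 with the block, 144 under 7500 UMIs, and 1631, 568 and 1404 leaving out a run. VP RFP+ against RFP- gave 27, and 69 with no filter, 77 with DESeq2, 94 with the block, 41 with at least 20 cells per sum, 46 without other cells, 70 without the top 6%, and 31, 0 and 0 leaving out a run. RFP+ AP against VP gave 2658, and 2148, 1153 and 1368 leaving out a run. RFP- AP against VP gave 1448, and 2184 with the block, 804 without the top 6%, and 1061, 362 and 633 leaving out a run. RFP- AP against DLP gave 137, and 285 with no filter, 212 with DESeq2, 457 with the block, 213 at a basal cut of 2, 2 under 7500 UMIs, and 74, 5 and 66 leaving out a run. Basal against luminal gave 6461, and 694 under 7500 UMIs.

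Numbers of members past 2-fold changed too. Under 7500 UMIs the count was 0 for castration in VP RFP+ basal, AP RFP+ luminal and AP RFP- luminal cells (1 each) and 0 for run 3 DLP luminal cells (3, or 1 without the top 6%), where Dst (1.45) and Itga6 (0.55) reversed. The alternatives for run 3 DLP cells were chosen after seeing the data. Castration in AP RFP+ luminal cells gave 4 at a basal cut of 10, and in DLP RFP- luminal cells 1 at that cut, 1 without other cells and 3 without the top 6%, in place of 0. In explants, day 1 against day 0 gave 1 in place of 0 in all cells (top 6% left out), in the high class (cut of 10) and in the low class (cut of 2). In the low class, day 3 against day 1 gave 0 (cut of 10, top 6%) in place of 1, day 6 against day 3 gave 4 (cut of 2) and 1 (cut of 10) in place of 2, and day 6 against day 0 gave 2 without other cells in place of 6. High against low class on day 0 gave 2 at a cut of 10 and 0 without other cells in place of 7. The cause was not tested.

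Of 1358 tests of members under alternatives, 1318 kept their side of the threshold, 18 passed anew and 22 no longer passed. The sign changed in 88 of the 1318, in none of which the value passed under either setting. The replicate block changed 13 calls, all given beside their results, and no other. Of 813 member ratios, 175 moved beyond the counting interval and 2 reversed. Of 153 shares of cells with a UMI, 108 moved on thinning to 2000 UMIs. The smallest tested basal sums (25 cells of VP RFP+ and 28 of DLP RFP-, both of run 1) and luminal members at a few UMIs limit what could be detected.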
